A study of Mus musculus with 8 samples.

Results

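Solute carriers are membrane proteins that move small molecules across cellular membranes, and their genes share the symbol prefix Slc. The set described here holds every gene on the array whose symbol is Slc followed by digits, read from probe sets with a single gene symbol, apart from Slc25a31, which was left out. Members were chosen by their intensity over all arrays: a gene entered if its brightest probe set had a mean log2(intensity + 16) over all arrays above the 40th percentile of the array, which lay at 6.31. Of 346 such genes on the array, 244 entered and 102 lay at or below the limit. Those 244 genes belong to 48 families and are a part of the 13787 genes tested. Of the members, 240 are carriers and 4 are named after a carrier without being one (Slc4a1ap, Slc7a6os, Slc9a3r1 and Slc9a3r2). The dimmest members inside the limit were Slc45a2 (mean log2 6.53), Slc9a7 (6.50) and Slc13a3 (6.43), and the brightest genes outside it were Slc15a1 (6.27), Slc12a8 (6.24) and Slc2a13 (6.24). Only this mean over both genotypes was used for the choice. A gene that was bright in 1 genotype alone, or in some replicates alone, could enter through it.

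RNA of whole testis was measured on Affymetrix arrays in 8 mice aged 27 days, with 1 array per mouse. The controls were 4 mice titled wild type, although their genotype entry reads Brwd1+/-, and the other 4 mice were Brwd1-/-, called mutants here. No mouse was treated, and neither the strain nor the kind of mutation is given in the sources used here. By the series' design text, spermatids are partway through their development at this age, and the comparison asks what differs between the genotypes at that stage.

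Most nutrients, ions and metabolites need a carrier to cross a membrane, and each carrier family favours a class of substrate. In the testis, Sertoli cells take up glucose and hand lactate on to germ cells, so carriers of sugars and of monocarboxylates stand on both sides of that exchange. Sperm and late spermatids also have carriers of their own for bicarbonate, sodium, protons and organic ions, some of which male fertility depends on.

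Brwd1 itself was not called between the genotypes. Its representing probe set read 303.9, 222, 305.7 and 328.6 in wild-type replicates 1 to 4 and 413.4, 436.1, 324.3 and 286.9 in mutant replicates 1 to 4 (limma, adjusted p = 0.766). The other 3 of its 4 kept probe sets gave log2 differences of -0.28, -0.20 and -0.036. Without knowing which stretch of the transcript is altered, this reading checks nothing about the genotype. Replicates 3 and 4 of both genotypes stood apart from replicates 1 and 2: the 13 epididymis markers on the array summed to 1247 to 2681 in replicates 1 and 2 and to 74655 to 89193 in replicates 3 and 4. The labels name no batch, so this is called a split of the replicates. Mutant replicate 1 stood apart on spermatid markers, whose sum was 6150 there and 22308 to 36422 in the other mutants.

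Few solute carrier genes differed between the genotypes, and those that differed most were lower in mutants. Without a block for replicates, 0 of 244 members were called in either direction (limma, Benjamini-Hochberg adjusted p under 0.05), beside 0.268% of all genes called lower and 0.0145% called higher. At an unadjusted p under 0.05, 10 members were lower (4.1%) and 6 higher (2.46%), beside 6.96% and 2.6% of all genes. With the replicate number as a block, 3 members fell at their representing probe sets: Slc36a3, Slc16a7 and Slc38a9. They make 1.23% of the members, beside 3.12% of all genes called lower in that fit, and 0 members rose, beside 0.326%. The other kept probe sets of Slc38a9 gave log2 differences from -0.15 to 0.70. With a block for the split of replicates, only Slc36a3 fell (0.41% of members, beside 2.16% of all genes) and 0 members rose (beside 0.471%). The share of members called was thus below that of all genes in each of these fits. With at most 3 members called these counts are small, and the shares were not compared by a test.

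The bulk of the set lay slightly above zero. The median log2 difference, mutant minus wild type, was 0.11 over the members and 0.065 over all genes, and 172 members (70.5%) had a positive difference, beside 62.8% of all genes. Each gene is read here at its brightest probe set, and other kept probe sets of a gene can differ from it. The differences ranged from -1.46 to 0.59, and 227 of 244 members lay within 0.5 log2 units of zero. At least 2-fold lower in mutants were 4 members, Slc5a4b, Slc35g3, Slc36a3 and Slc22a14 (1.64%, beside 4.15% of all genes), and 0 members were at least 2-fold higher, beside 0.116%. All 4 mutants lay below all 4 wild types for 6 members (2.46%, beside 5.26%) and above them for 7 (2.87%, beside 2.53%). Without mutant replicate 1 these counts were 8 (3.28%, beside 5.67%) and 9 (3.69%, beside 3.28%). The plot by substrate class shows a long tail of single carriers to the left and none of that length to the right.

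**Figure D1:**
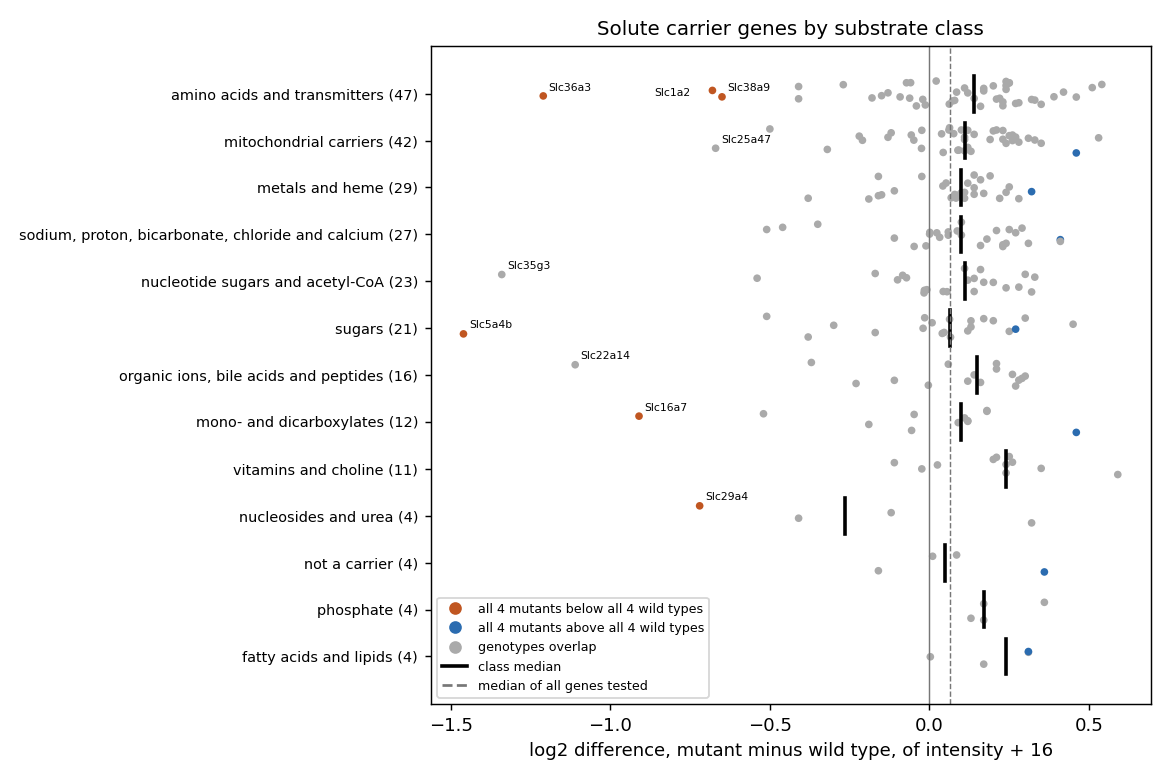
Each point is 1 of 244 solute carrier genes, placed by its log2 difference between mutants and wild types (intensity + 16) and by substrate class, with class sizes in brackets; black bars are class medians and the dashed line is the median of all genes tested (0.065). Most points lie between -0.5 and 0.5, and the labelled carriers, from Slc5a4b (-1.46) to Slc38a9 (-0.65), lie to the left.

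Markers of several cell types moved with the genotype, those of spermatids by the most. All 15 markers of spermatids were lower in every mutant than in every wild type, with a median log2 difference of -2.28, and their summed intensity was 91072 to 158875 in wild types and 6150 to 36422 in mutants. The 12 kept Sertoli cell markers all had positive differences (median 0.12), and their sums, 45088 to 53930 and 49975 to 62776, overlapped. Endothelial markers were positive in 9 of 10 (median 0.14), and their sums, 2704 to 3608 in wild types and 3832 to 4321 in mutants, did not overlap. Markers of macrophages and leukocytes were positive in 11 of 12 (median 0.22), with overlapping sums of 10081 to 13957 and 12282 to 17664. Blood markers, of which 1 was kept, summed to 403 to 604 and 607 to 857 without overlap. Of 12 spermatocyte markers 9 were negative (median -0.04), while their sums were 45156 to 55485 in wild types and 52279 to 62995 in mutants. The 11 spermatogonial markers were all positive (median 0.15). Positive were also 6 of 7 kept Leydig cell markers (median 0.12) and 4 of 7 kept peritubular and smooth muscle markers (0.086). Over all genes, 62.8% were positive (median 0.065), and 5.26% were lower in every mutant than in every wild type. No marker of any of these lists was below 1 on all arrays, and the part of these cell types in the carrier values was not tested. In whole tissue, fewer cells of a type and less RNA per cell cannot be told apart.

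Carriers of amino acids and transmitters were the largest class, with 47 members. Their median log2 difference was 0.14, with 31 positive and 16 negative. At their representing probe sets 2 fell with the replicate block (4.26%, beside 3.12% of all genes). Slc36a3 belongs to the family of proton-coupled amino acid carriers, and its close relatives bring small amino acids out of lysosomes or into cells together with a proton. It read 433, 574.3, 442 and 245.2 in wild-type replicates 1 to 4 and 123.6, 230.8, 138.4 and 193.4 in mutant replicates 1 to 4. Every mutant lay below every wild type, though wild-type replicate 4 came close to the highest mutant. The mean intensity was 424 ± 135 in wild types and 172 ± 49.6 in mutants (SD, n = 4 each). This is a log2 difference of -1.21 (SE 0.28), or 2.31-fold lower. The adjusted p of limma was 0.111 without a block, 0.0359 when replicate numbers were blocked and 0.0448 when the split was blocked. The lower pair of replicate numbers gave -1.47, the higher pair -0.94, and all mice but mutant replicate 1 gave -1.08.

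Slc38a9 is a lysosomal amino acid carrier that senses arginine for the growth kinase complex mTORC1. It read 836.4, 1183, 1180 and 919.5 in wild types and 563, 681.6, 706.8 and 636 in mutants, again with no overlap. The means were 1030 ± 179 and 647 ± 63.1 (SD, n = 4 each), a log2 difference of -0.65 (SE 0.16), or 1.57-fold lower. Its size was nearly the same in both pairs of replicates, -0.67 and -0.62. The adjusted p of limma was 0.13 without a block, 0.028 when replicate numbers were blocked and 0.052 when the split was blocked. Of 7 kept probe sets for this gene only the brightest gave this value: the others gave -0.15, -0.021, 0.087, 0.19, 0.29 and 0.70, and their joint mean with it was 0.065. The call therefore rests on that probe set alone.

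Slc1a2, a glutamate carrier best known from glia, was dim and lower in all mutants without being called. Its wild types read 182, 202.5, 133.9 and 128.7 and its mutants 87.4, 74.36, 106.1 and 109.4, a log2 difference of -0.68 (SE 0.20, adjusted p = 0.217 by limma). The distance was wide in replicates 1 and 2 (-1.11) and narrow in replicates 3 and 4 (-0.25), and its second kept probe set gave -0.44. On the other side, Slc17a9, which loads ATP into vesicles, had the difference 0.51 (SE 0.19, adjusted p = 0.376 by limma), with wild types at 236 to 335.9 and mutants at 306.2 to 494.1, so that the genotypes overlapped. Slc17a9 was picked after its values were seen. Slc3a2 and Slc7a5, the heavy and light chain of a large neutral amino acid exchanger and also picked in that way, had differences of 0.14 and 0.24.

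Promoters are shown for 4 of the 6 carriers that were lower in all mutants, to let the letters upstream of a called gene be read beside those of carriers with the same direction. They are the 250 bases before the RefSeq start in assembly GRCm38.p6, 5′ to 3′ on the strand of the gene, in lower case with matches to the searched motifs in capitals. Slc36a3 was called with both blocks. Slc38a9, Slc5a4b and Slc29a4 were added after their values were seen, the table used held no entry for Slc16a7, and the promoter of Slc1a2, which had the highest adjusted p of these carriers with the replicate block, is not shown. The windows are chr11:55151709-55151958 on the minus strand for Slc36a3, chr13:112660516-112660765 on the plus strand for Slc38a9, chr10:76111019-76111268 on the minus strand for Slc5a4b and chr5:142701851-142702100 on the plus strand for Slc29a4.
Slc36a3: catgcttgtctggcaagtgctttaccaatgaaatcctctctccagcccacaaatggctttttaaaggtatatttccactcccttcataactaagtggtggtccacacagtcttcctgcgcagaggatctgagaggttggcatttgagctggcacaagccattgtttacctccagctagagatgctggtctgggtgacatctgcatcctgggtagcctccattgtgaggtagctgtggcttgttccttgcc
Slc38a9: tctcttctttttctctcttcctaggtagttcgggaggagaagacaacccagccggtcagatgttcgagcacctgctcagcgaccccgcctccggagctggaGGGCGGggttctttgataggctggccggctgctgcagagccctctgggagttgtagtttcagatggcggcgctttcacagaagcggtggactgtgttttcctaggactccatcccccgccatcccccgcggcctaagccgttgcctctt
Slc5a4b: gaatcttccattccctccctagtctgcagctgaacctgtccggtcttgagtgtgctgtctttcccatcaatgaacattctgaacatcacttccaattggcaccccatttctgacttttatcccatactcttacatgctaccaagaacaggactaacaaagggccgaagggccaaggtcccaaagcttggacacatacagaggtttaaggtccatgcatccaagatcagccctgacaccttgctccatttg
Slc29a4: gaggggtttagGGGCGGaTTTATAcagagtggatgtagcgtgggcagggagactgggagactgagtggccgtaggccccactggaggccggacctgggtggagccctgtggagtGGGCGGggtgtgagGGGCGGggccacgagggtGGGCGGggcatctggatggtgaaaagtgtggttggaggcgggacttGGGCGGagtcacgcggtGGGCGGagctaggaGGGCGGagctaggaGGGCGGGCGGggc
The motifs were the cAMP response element TGACGTCA, its shorter core TGACG, which lies within the full element, the TATA box TATAAA and the GC box GGGCGG, each on both strands. Slc36a3 and Slc5a4b held no match to any of them. Slc38a9 held 1 GC box, beginning 149 bases before the start. Slc29a4 held 9 GC boxes, the last pair of which overlap, and 1 TATAAA on the opposite strand, beginning 232 bases before the start. Over all 32851 promoters in the table, 1.55% held TGACGTCA, 17.8% TGACG, 12.4% TATAAA and 32.7% GGGCGG. Over the 14147 promoters of tested genes, which passed the same intensity limit, the shares were 2.4%, 25.1%, 6.88% and 54.2%. Over the 244 promoters of the 186 members that matched they were 1.23%, 23%, 6.15% and 62.7%, and some members have more than 1 promoter. The first share is 3 promoters and the third 15, and the shares were not compared by a test. A match is a description of the letters, and a missing match says only that these letters are not in this window.

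Among 12 carriers of mono- and dicarboxylates, 7 had positive and 5 negative differences, with a median of 0.098. Slc16a7 is the high-affinity carrier for pyruvate and lactate of the monocarboxylate family, known from sperm tails. It read 4368, 6624, 7062 and 5215 in wild types and 1491, 3196, 4094 and 4361 in mutants. The highest mutant, replicate 4, lay just under the lowest wild type, replicate 1. The means were 5817 ± 1247 and 3285 ± 1296 (SD, n = 4 each), a log2 difference of -0.91 (SE 0.33), or 1.88-fold lower, with an adjusted p by limma of 0.366 without a block, 0.0441 when replicate numbers were blocked and 0.114 when the split was blocked. Mutant replicate 1 was the lowest mouse, and leaving it out gave -0.57. Leaving out replicate number 1 in both genotypes gave -0.70 with the replicate block. Replicate 2 was lower in the mutant too, at 3196 beside 6624. Replicate numbers 1 and 2 alone gave -1.29, while numbers 3 and 4 alone gave -0.52. How far single mice set these values was not tested.

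Its relatives did not share that value. Slc16a1, the widespread lactate carrier and picked after its values were seen, read 2328 ± 114 in wild types and 2518 ± 296 in mutants (SD, n = 4 each), with a log2 difference of 0.11. Slc16a9, a relative that carries carnitine, read 129.2, 102, 75.07 and 112.4 in wild types and 140.5, 165.7, 154.5 and 131 in mutants. Its genotypes did not overlap, with a log2 difference of 0.46 (SE 0.19, adjusted p = 0.451 by limma), and its second probe set gave 0.16. Both the largest negative and the largest positive difference of the class thus lay in the monocarboxylate family, and neither passed the test without a block.

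Sugar carriers numbered 21, with 14 positive and 7 negative differences and a median of 0.063. At the representing probe sets, Slc5a4b, of the sodium-glucose carrier family, had the lowest value of the whole set. A second kept probe set of Slc22a12 lay lower, at -1.61, beside 0.16 at its representing one. Slc5a4b read 483.8, 702.6, 438.8 and 343.3 in wild types and 37.42, 256, 246.4 and 250.5 in mutants. Thus 3 mutants lay close together and mutant replicate 1 far under them. The means were 492 ± 152 and 198 ± 107 (SD, n = 4 each), with a log2 difference of -1.46 (SE 0.52, adjusted p = 0.345 by limma), which was -0.88 without mutant replicate 1. Replicates 1 and 2 alone gave -2.31, while replicates 3 and 4 alone gave -0.61.

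None of the facilitated sugar carriers of the Slc2 family was called. Of its 7 members 6 had positive differences, and the values ranged from -0.02 to 0.45, with a median of 0.20. With quantile normalization Slc2a12 turned negative, beside Slc2a5. Slc2a4, the insulin-responsive carrier, read 116.8 to 163.9 in wild types and 163.5 to 242.5 in mutants, with a log2 difference of 0.45 (SE 0.17, adjusted p = 0.416 by limma). Slc37a1, a glucose 6-phosphate carrier of the endoplasmic reticulum, read 192.4 to 223.6 and 236.6 to 290.3 without overlap, with a difference of 0.27 (SE 0.14, adjusted p = 0.629 by limma). Slc2a3, the high-affinity glucose carrier of germ cells, read 21064 ± 3327 and 23064 ± 3133 (SD, n = 4 each), and Slc2a5, the fructose carrier of sperm, 5436 ± 929 and 5471 ± 1613, with differences of 0.13 and -0.02. Slc37a1, Slc2a3 and Slc2a5 were picked after their values were seen. Within pairs of equal replicate number, Slc2a3 was higher in the mutant in 4 of 4 pairs and Slc2a5 in 1 of 4, and with the replicate block their adjusted p-values by limma were 0.29 and 0.939.

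**Figure D2:**
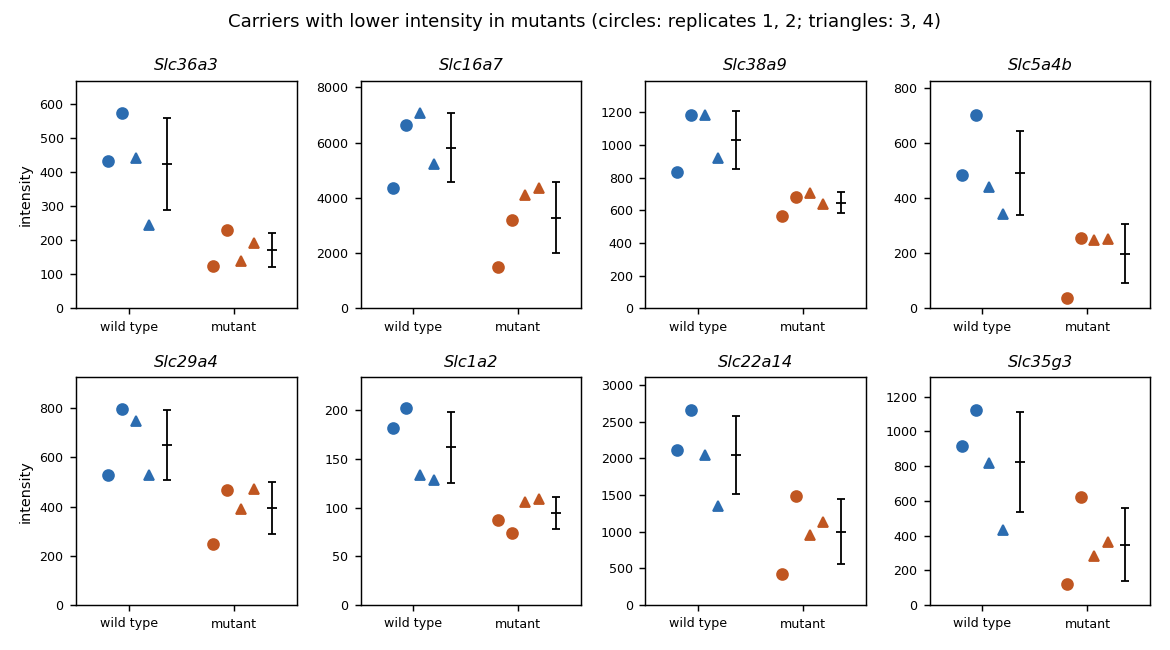
Intensity of 8 carriers in each mouse, with wild types in blue and mutants in red, replicates 1 and 2 as circles, replicates 3 and 4 as triangles, and mean ± SD (n = 4) at the side. The genotypes do not overlap for Slc36a3, Slc16a7, Slc38a9, Slc5a4b, Slc29a4 and Slc1a2, they overlap for Slc22a14 and Slc35g3, and mutant replicate 1 is the lowest mouse for all but Slc1a2.

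Carriers of organic ions, bile acids and peptides had 11 positive and 5 negative differences among 16, with a median of 0.15. Slc22a14, a carrier of sperm that mice need for normal sperm movement, read 2120, 2661, 2044 and 1352 in wild types and 426.7, 1481, 953.4 and 1134 in mutants. The genotypes overlapped, since mutant replicate 2 exceeded wild-type replicate 4. The means were 2044 ± 537 and 999 ± 440 (SD, n = 4 each), a log2 difference of -1.11 (SE 0.37, adjusted p = 0.279 by limma), or -0.76 without mutant replicate 1. Slc22a5, the main carnitine carrier, read 2582 to 3192 and 3135 to 3705, a difference of 0.21 (SE 0.11, adjusted p = 0.692 by limma). The related carnitine carriers Slc22a16 (-0.11) and Slc22a21 (0.12), picked after their values were seen, also lay near zero.

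Carriers of nucleotide sugars and acetyl-CoA, which stock the Golgi apparatus and endoplasmic reticulum with building blocks, had 14 positive and 9 negative differences among 23, with a median of 0.11. Slc35g3, a member of that family found in testis, read 914.5, 1121, 819 and 432.3 in wild types and 118.6, 619.5, 284.3 and 364.1 in mutants. Wild-type replicate 4 lay below mutant replicate 2, so the genotypes overlapped. The means were 822 ± 289 and 347 ± 209 (SD, n = 4 each), a log2 difference of -1.34 (SE 0.46, adjusted p = 0.326 by limma), or -0.93 without mutant replicate 1. Slc35e4, of the same family, was dim, at 65.23 to 190.4 in wild types and 59.19 to 87.6 in mutants, with a difference of -0.54 (SE 0.28, adjusted p = 0.652 by limma).

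Only 4 members carry nucleosides or urea, and 3 of them had negative differences, with a median of -0.26. Slc29a4, of the nucleoside carrier family and also a carrier of monoamines, read 528.3, 798.7, 747.9 and 528.5 in wild types and 249.1, 467.7, 388.9 and 470.8 in mutants. No mutant reached a wild type. The means were 651 ± 143 and 394 ± 104 (SD, n = 4 each), a log2 difference of -0.72 (SE 0.24), with an adjusted p by limma of 0.291 without a block and 0.065 when replicate numbers were blocked. Slc14a2, a urea carrier, read 148 to 240.2 in wild types and 109.4 to 148.8 in mutants, with a difference of -0.41 (SE 0.19, adjusted p = 0.56 by limma).

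Mitochondrial carriers, which exchange metabolites across the inner membrane, had 31 positive and 11 negative differences among 42, with a median of 0.11. Slc25a27, an uncoupling protein relative, read 80.2, 112.6, 116.6 and 99.57 in wild types and 133.8, 134.8, 158.6 and 154.2 in mutants. Its genotypes did not overlap, with a log2 difference of 0.46 (SE 0.17, adjusted p = 0.366 by limma), but its second probe set gave -0.47 and the mean of both was -0.0072. Slc25a41, an ATP-magnesium phosphate carrier, read 125.6 to 194 in wild types and 86.3 to 141.9 in mutants, with a difference of -0.50 (SE 0.20, adjusted p = 0.451 by limma). The ADP/ATP carriers Slc25a4 and Slc25a5, picked after their values were seen, had differences of 0.26 each. Other kept probe sets gave 0.42 and 0.20 for Slc25a4 and -0.14 to 0.43 for Slc25a5, where 3 had the opposite sign. Slc25a47, an outlying member picked in that way too, read 169.9 to 390.8 and 33.14 to 292, with a difference of -0.67 (SE 0.56).

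Carriers of sodium, protons, bicarbonate, chloride and calcium had 21 positive and 6 negative differences among 27, with a median of 0.10. Slc26a6, an exchanger of chloride for bicarbonate and oxalate, read 200.9, 130.2, 177.2 and 196.4 in wild types and 213.1, 243.4, 252.5 and 241.3 in mutants. The genotypes did not overlap, with a log2 difference of 0.41 (SE 0.17, adjusted p = 0.457 by limma). Slc4a9, a bicarbonate carrier, was dim, with wild types at 75.68 to 121.9 and mutants at 53.69 to 85.2, and had a difference of -0.51 (SE 0.21, adjusted p = 0.478 by limma). Slc26a8, an anion carrier of sperm, and Slc9b1, a sperm sodium-proton exchanger, were picked after their values were seen. Slc26a8 read 2544 ± 250 and 2605 ± 445 (SD, n = 4 each), a difference of 0.023, while its other kept probe set gave 0.25. Slc9b1 read 5144 ± 508 and 5148 ± 485, a difference of 0.0011, while its other kept probe sets gave 0.076, 0.083 and 0.44. At these probe sets the means of both sperm ion carriers thus differed by less than the SD between mice. Neither was called with the replicate block (limma, adjusted p = 0.924 and 0.996).

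Metal and heme carriers had 22 positive and 7 negative differences among 29, with a median of 0.10. Slc30a1, which exports zinc from the cell, read 1378, 1033, 1267 and 1247 in wild types and 1698, 1409, 1579 and 1451 in mutants. The lowest mutant was just above the highest wild type. The log2 difference was 0.32 (SE 0.13, adjusted p = 0.482 by limma), while the second probe set gave -0.45 and the mean of both was -0.067. Slc39a4, a zinc importer, read 89.84 to 121.3 and 58.45 to 101.3, with a difference of -0.38 (SE 0.19, adjusted p = 0.644 by limma).

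Among carriers of vitamins, fatty acids and phosphate most differences were positive and none passed the test. Vitamin and choline carriers had 9 positive differences of 11 and a median of 0.24. Slc46a1, a folate carrier of that class, read 195.2 to 320 in wild types and 264.9 to 324.2 in mutants (0.35, SE 0.19). Slc44a4, a carrier of choline and thiamine pyrophosphate, had the highest value of the whole set at the representing probe sets, 0.59 (SE 0.35). Its genotypes overlapped, at 42.74 to 144.1 and 94.59 to 198.8. Other kept probe sets of Slc1a3 (0.72 and 0.68), Slc38a9 (0.70) and Slc12a7 (0.67) lay higher. Fatty acid carriers had 4 positive differences of 4 and a median of 0.24: Slc27a4 read 259.1 to 380.8 and 390 to 450.6 without overlap (0.31, SE 0.16), and Slc27a3 read 242.7 to 346.1 and 265.6 to 530.9 (0.31, SE 0.26). Both belong to the proteins that trap fatty acids as their CoA esters. All 4 members of the phosphate class, which includes a sulfate carrier, were positive as well, with a median of 0.17, among them that sulfate carrier, Slc13a4 (0.36, SE 0.21) and the phosphate carrier Slc20a1 (0.17, SE 0.15).

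Of the 4 genes named after a carrier, 3 had positive differences, with a median of 0.047. Slc9a3r2, a scaffold that ties exchangers to the cytoskeleton, read 151.6, 105.6, 137.4 and 132.3 in wild types and 172.9, 208.1, 151.9 and 158.8 in mutants. The genotypes were narrowly separated, with a log2 difference of 0.36 (SE 0.17, adjusted p = 0.593 by limma). Of its 5 other probe sets 1 had the opposite sign (-0.21), and the rest gave smaller differences of 0.073 to 0.14. Slc4a1ap, named as an adaptor of the anion exchanger Slc4a1, read 587.7 to 654.3 and 489.1 to 599.8 (-0.16, SE 0.12).

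**Figure D3:**
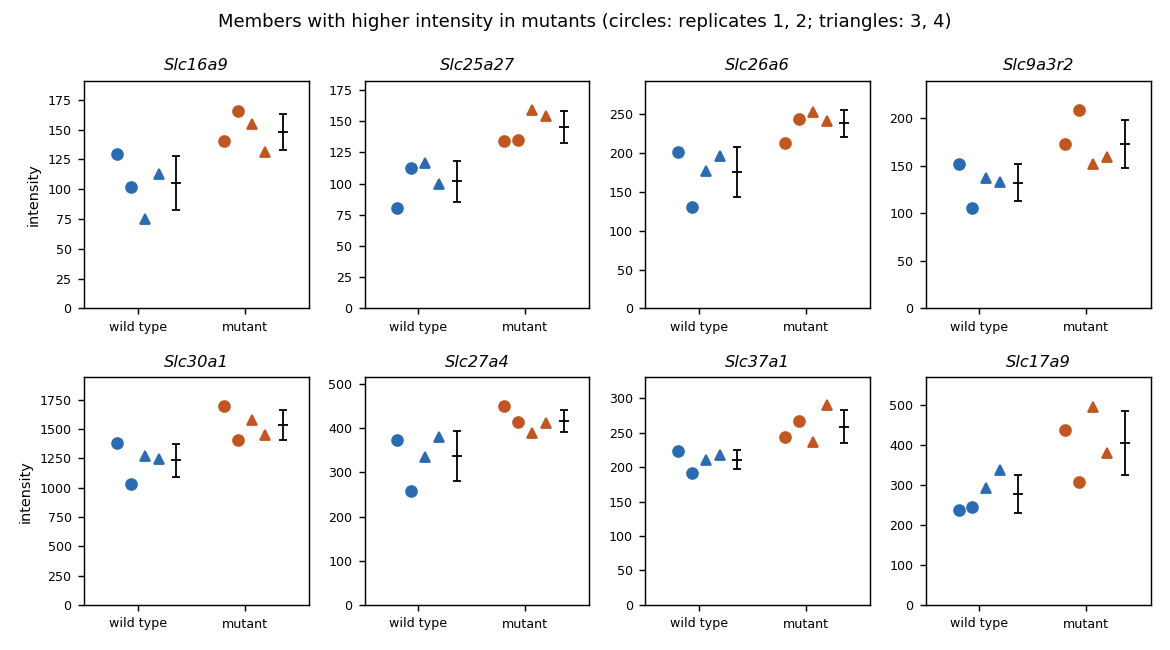
Intensity of 8 members in each mouse, drawn as in the plot of lower carriers: wild types in blue, mutants in red, circles for replicates 1 and 2, triangles for 3 and 4, and mean ± SD (n = 4). The genotypes do not overlap for 7 members and overlap for Slc17a9, and all log2 differences lie between 0.27 and 0.51.

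Carriers under other symbols and the proteins that work with carriers were read from 4 lists. Of 57 listed carriers without an Slc symbol, 37 were kept, 27 with a positive and 10 with a negative difference (median 0.098). Slco3a1, an organic anion carrier for prostaglandins and thyroid hormone, was the only 1 of these 37 called. It rose only with the block for the split, beside 0.471% of all genes called higher in that fit. It read 794.4, 654.4, 670.6 and 773.5 in wild types and 1250, 1413, 889.1 and 1042 in mutants, a log2 difference of 0.64 (adjusted p by limma 0.154 without a block, 0.0625 when replicate numbers were blocked and 0.0468 when the split was blocked). Of 17 carrier partner proteins, 14 were kept (median 0.12). In any of the 3 fits 0 of them were called, beside at most 3.12% of all genes called lower and 0.471% called higher. Pdzk1, a scaffold for organic ion carriers, read 1186, 1820, 2324 and 1760 in wild types and 130.7, 413.9, 1134 and 1245 in mutants (-1.66, or -1.03 without mutant replicate 1). Stk39, a kinase that sets chloride carriers to work, had a difference of 0.26.

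The pumps that build the ion gradients many carriers run on held the largest difference of these lists. Of 25 listed pump genes, 16 were kept, 10 with a positive and 6 with a negative difference (median 0.11). Atp1a4, the sodium pump subunit of sperm, read 1744, 2660, 1903 and 1348 in wild types and 166.5, 707.6, 540 and 645.5 in mutants. With the replicate block it fell by 2.00 on the log2 scale (limma, adjusted p = 0.0221), and it was called with the block for the split (0.0447) but not without a block (0.0938). Without mutant replicate 1 its log2 difference was -1.54. Atp1b3, a sodium pump beta subunit, read 6063 to 7327 and 4516 to 5518 without overlap (-0.40). Of 12 aquaporins, 10 were kept (median 0.14). In any of the 3 fits 0 of them were called, beside at most 3.12% of all genes called lower and 0.471% called higher. Aqp7, a water and glycerol channel, read 865.7 to 1812 in wild types and 114.2 to 814.2 in mutants, with a difference of -1.66, or -1.07 without mutant replicate 1.

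The size of the genotype difference varied between the pairs of replicates. Its median over members was 0.17 for replicates 1 and 2 alone and 0.047 for replicates 3 and 4 alone, beside 0.09 and 0.03 over all genes. The 8 carriers of the plot of lower intensities were negative in both pairs and further from zero in replicates 1 and 2, which include mutant replicate 1. Slc38a9 was the most even of them. Slc30a3, a zinc carrier of vesicles, had opposite signs, -0.74 for replicates 1 and 2 against 1.05 for replicates 3 and 4, and the difference between these was not tested.

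**Figure D4:**
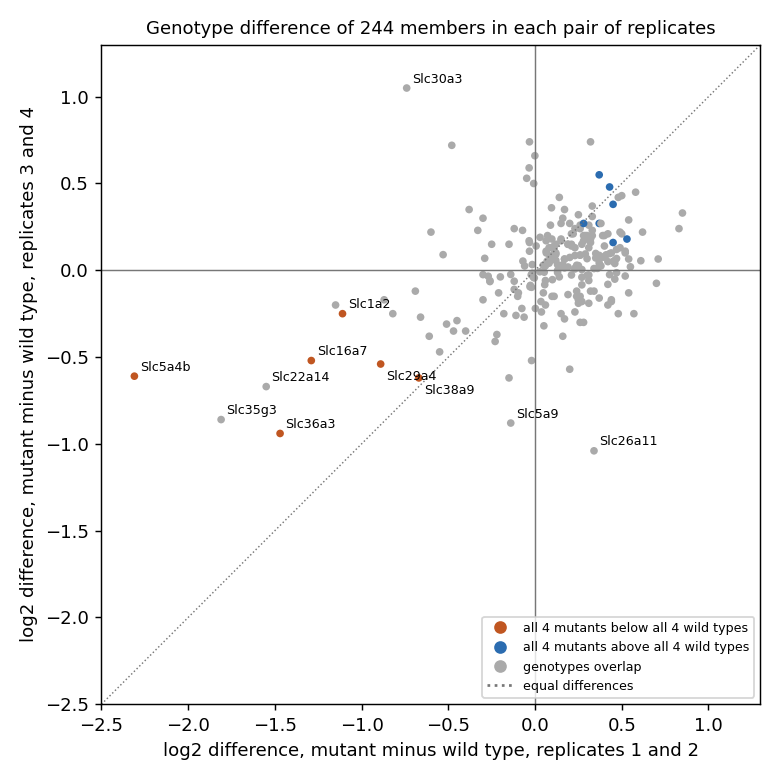
Each point is 1 of 244 members, placed by its log2 difference between mutant and wild type within replicates 1 and 2 (horizontal) and within replicates 3 and 4 (vertical), with 2 mice per genotype in each. Points near the dotted line differ equally in both pairs, as Slc38a9 does (-0.67 and -0.62), while Slc5a4b (-2.31 and -0.61) lies far to its left and Slc30a3 (-0.74 and 1.05) above zero.

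Across both genotypes, more members differed by at least 2-fold between replicates 3 and 4 and replicates 1 and 2 than between genotypes. These values describe a split already seen in the arrays and carry no test. Members and all genes passed the same intensity limit, and a gene bright in replicates 3 and 4 alone could pass it. At least 2-fold higher in replicates 3 and 4 were 16 members (6.56%, beside 7.38% of all genes), 6 of them carriers of amino acids, and at least 2-fold lower were 2 (0.82%, beside 0.319%). All values of replicates 3 and 4 lay above those of replicates 1 and 2 for 43 members (17.6%, beside 19.1%) and below for 41 (16.8%, beside 18.4%). With each array centred on its median, which shifted the median of all genes from 0.014 to -0.23, the counts were 8 higher and 3 lower.

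Slc1a1, a carrier of glutamate and cysteine, read 75.12, 16.22, 33.75 and 54.3 in replicates 1 and 2 (wild types first) and 966.5, 1115, 895.4 and 1258 in replicates 3 and 4. It was 18.8-fold higher in the latter, while its genotype difference within each pair was 0.13 and 0.032. Slc38a5, a glutamine carrier, read 934.7 to 1356 in replicates 1 and 2 and 6997 to 8261 in replicates 3 and 4, which is 6.79-fold higher. Slc15a2, a peptide carrier (3.6-fold), Slc36a2, a proton-coupled amino acid carrier (3.4-fold), and Slc1a5, a carrier of neutral amino acids (3.37-fold), followed, all without overlap. The epididymis markers given above moved with this split, and their part in it was not tested.

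The opposite direction was smaller. Slc29a1, the widespread nucleoside carrier, averaged 4065 over replicates 1 and 2 but only 1714 over replicates 3 and 4, 2.34-fold lower in the latter. Its 4 mice of replicates 1 and 2 read 3259 to 4785 and the other 4 read 1497 to 1983. Slc30a3 averaged 2387 and 1101, 2.16-fold lower, but its mice overlapped. Slc35c2, a Golgi relative of nucleotide sugar carriers (1.81-fold), Slc2a8, a glucose carrier of inner membranes (1.66-fold), and Slc22a18, an organic cation carrier (1.65-fold), were lower without overlap.

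**Figure D5:**
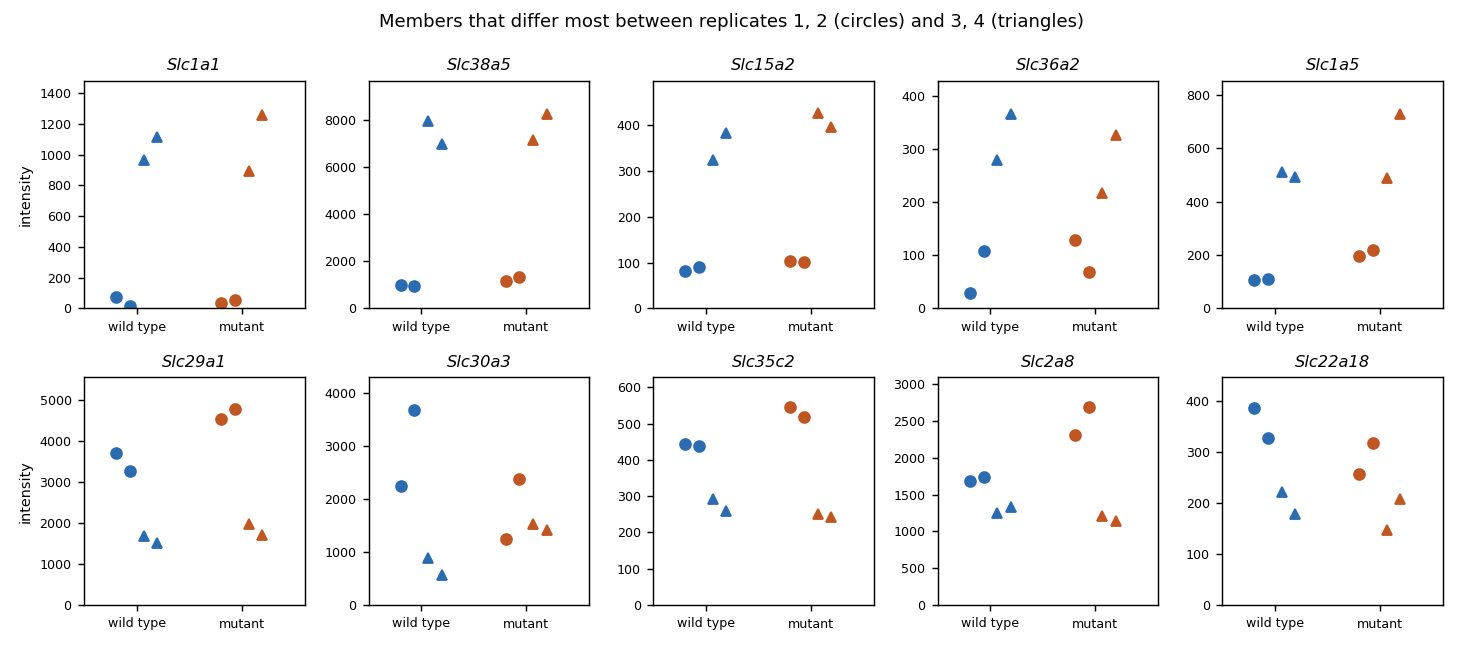
Intensity of the 5 members with the largest rise and the 5 with the largest drop from replicates 1 and 2 (circles) to replicates 3 and 4 (triangles), with wild types in blue and mutants in red. In both genotypes the triangles of Slc1a1 lie between 895.4 and 1258 and its circles between 16.22 and 75.12, and only Slc30a3 overlaps between the pairs.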

How the data were processed

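The authors deposited linear intensity values made with GCOS, per the submitters' processing notes, and its version is not given in the sources used here. The deposited intensity table holds 45101 probe sets, and each array has a mean of 500 after trimming 2% at each end. Array medians lay between 90.7 and 124. No detection calls were used, so for a dim probe set the distance to background is unknown, and precision is limited by the number of arrays. Of 45037 probe sets other than AFFX controls, 34945 had 1 gene symbol in the platform annotation, 932 several and 9160 none, and 34741 were updated through Entrez identifiers. Values were taken as log2(value + 16), on which changes of dim genes come out too small. Probe sets above the 40th percentile of the mean were kept (27022), and the one with the highest mean represented a gene. Of the members, 145 had 1 kept probe set and 99 had more, 45 of these with the opposite sign in another. Levels of different probe sets were not compared.

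Genotypes were compared with limma 3.58.1 (R 4.3.3), using lmFit and eBayes (trend on intensity). Tests were two-sided and adjusted by Benjamini-Hochberg over 13787 genes, with a threshold of 0.05. Adjusted p-values come from this fit without a block unless a block is named. Without a block the p-values set a difference against the spread between mice, and with a block against the spread left after the block. Mice of equal replicate number deviated together from their genotype's mean (r over genes 0.515 to 0.677 in the 4 pairs), so the numbers were treated as pairs. This comes from the data and not from the labels, 3 of 8 mice were closest to their own number, and the correlation followed the split of replicates 1 and 2 from 3 and 4. The fits were run on simulated data before use. Those data held the split of replicates and noise independent between mice. They held no further likeness of mice of equal number, so they cannot check the pairing. No 2 arrays were identical, and 0 columns of other samples were present.

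Named members were those called in any of the 3 fits, up to 8 with no overlap between genotypes, the 2 with the smallest p per substrate class, the 5 largest rises and 5 largest drops across the split, and the 3 genes on each side of the intensity limit. For each transport list the 2 genes with the smallest p were named. The members, classes, lists and marker genes were chosen with earlier results of these data known. Alternatives covered both blocks, either pair of replicates, other scalings, pseudocounts, filters, variance models and probe set rules, and leaving out each mouse. Promoters came from RefSeq (GRCm38.p6), chromosome 18 left aside. Figures were drawn with matplotlib 3.10.9.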

Additional observations from a re-analysis of the deposited data

Results flagged for a closer look

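Among the 37 named members, the 4 mice of each genotype were searched for a mouse far from the others, by Dixon's criterion at its 95% critical value for groups of 4. Of the 74 groups looked at, 3 had such a mouse, and chance alone gives about 1 in 20 groups. Slc5a4b, a sodium-glucose family carrier, read 37.42 in mutant replicate 1, far under the other mutants at 246.4 to 256. Slc22a5, the carnitine carrier, read 3705 in mutant replicate 2, above the other mutants at 3135 to 3211. Slc46a1, a folate carrier, read 320 in wild-type replicate 3, above the other wild types at 195.2 to 207.6.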

How the results depend on the processing

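No member was called higher, and the median difference of the members stayed positive (0.047 to 0.17), under every alternative run. The count of members called lower was 0 without a block, beside 0.268% of all genes. It was 3 with the replicate block (1.23%, beside 3.12% of all genes) and 1 with the block for the split (0.41%, beside 2.16%). Array weights gave 5 of 244 members (Slc22a14, Slc25a33, Slc35g3, Slc36a3 and Slc38a9), beside 697 of 13787 genes in both directions. Leaving out mice gave 0 to 6 members. Without a block the count was 0 throughout, beside 0 to 185 of all genes in both directions. With the block for the split it was 3 without mutant replicate 1, beside 630 genes, and 1 without wild-type replicate 4, beside 357. With the replicate block it was 4, 0, 0 and 6 without replicate numbers 1, 2, 3 and 4, beside 527, 0, 2 and 683 genes. Slc36a3 was called in 2 of 8 fits that left out a mouse with the block for the split, and Slc36a3, Slc16a7 and Slc38a9 each in 2 of 4 with the replicate block. The counts over all genes, 13787 in the main fit, hold both directions together. They were 39 without a block, 475 with the replicate block, 363 with the block for the split and 697 with array weights. Replicates 1 and 2 alone gave 0 and replicates 3 and 4 alone gave 27. Pseudocounts of 1 and 64 gave 23 and 92, and the 60th percentile filter gave 22. Leaving out each mouse gave 0 to 185 genes without a block. With the block for the split it gave 630, 342, 16 and 130 without mutant replicates 1 to 4 and 41, 37, 23 and 357 without wild-type replicates 1 to 4. With the replicate block it gave 527, 0, 2 and 683 without replicate numbers 1 to 4. The cause of these changes was not tested.

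Of 934 values of named members under the alternatives, 908 kept direction and side of the threshold, 22 newly passed it and 4 changed sign: Slc27a3 (-0.0028, array weights) and, as the mean of probe sets, Slc38a9 (0.065), Slc25a27 (-0.0072) and Slc30a1 (-0.067). The probe sets of the last 3 genes disagreed in sign. Across the split of replicates, 18 members differed at least 2-fold, 10 with a pseudocount of 64, 11 with median centring, and 13 to 21 when mice were left out. Fits that left out replicate numbers with the replicate block, the alternatives for the split and the count of genotypes without overlap were added after seeing the data.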
